A study of Mus musculus with 4 samples.

Results

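Kdm6b encodes KDM6B, a demethylase of lysine 27 on histone H3, and these data hold the cerebellar RNA of mice with and without its conditional deletion in the granule lineage. Described here are 29 genes of cholesterol synthesis, sterol sensing and sterol transport, taken by symbol from a list in pathway order, of the 55341 genes counted in each library. All 29 had enough counts to be tested. The list does not hold every enzyme and regulator of the pathway, and the others are not analysed here. RNA-seq was run on cerebellar tissue at postnatal day 14 (P14) from 2 WT and 2 cKO mice, 1 mouse per library. Both genotypes carried the floxed Kdm6b allele on both chromosomes (Kdm6b fl/fl). The cKO mice also carried Atoh1-Cre, which is active in granule neuron precursors (GNPs). Cells that never had Cre activity should keep Kdm6b, but counts of whole tissue do not show which cells these are. The study describes the animals as littermates.

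Cholesterol is built from acetyl-CoA through mevalonate, farnesyl diphosphate, squalene and lanosterol. Brain cells make their own, because lipoproteins of the blood do not cross the blood-brain barrier. Oligodendrocytes, which need it for myelin, and astrocytes are the main producers, and newborn neurons also synthesize it while their membranes grow. When sterols in the endoplasmic reticulum fall, the escort SCAP carries the transcription factors SREBP1 and SREBP2 to the Golgi, where they are cut and released to switch on the synthesis genes. INSIG proteins hold SCAP back when sterols are plentiful.

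The libraries held 8811849 to 9892363 counts in genes. Markers of granule neuron identity (Zic1, Zic2, Pax6, Neurod1 and Rbfox3) summed to 3041 to 3424 counts scaled to library size (CPM, the reads of a gene per 1e6 reads in genes), so RNA of granule neurons, the main neurons of this tissue, was present. Kdm6b was measured at 154 and 154 CPM in the WT mice and 127 and 119 CPM in the cKO mice, -0.33 on the log2 scale (SE 0.076, adjusted p = 0.0162 in edgeR), a call that was lost whenever any 1 library was left out (edgeR adjusted p = 0.111 to 0.493). Per the study, the loxP sites of Kdm6b flank the exons that encode its catalytic domain. The counts cover all exons of the gene, so they do not isolate the deleted part. WT 1 differed from the other libraries in its sex-linked genes, with Xist at 0.431 CPM against 1360 to 1600 CPM, and a summed 233 CPM of Y-linked genes against at most 0.672 CPM. In cKO 1, markers of the choroid plexus summed to 696 CPM, against 36.4 to 42.7 CPM in the other libraries. Ttr, the most abundant of these markers in cKO 1, was at 1.73 and 0.108 CPM in WT, 609 CPM in cKO 1 and 13.9 CPM in cKO 2. Results below are therefore also given without single libraries.

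Genes of cholesterol synthesis leaned upward in Kdm6b-cKO cerebellum, by small amounts. Mvd and Sqle rose, 0 of the 29 genes fell, and 27 did not pass the test (edgeR, adjusted p under 0.05). The 2 calls are 6.90% of the members, where 1.87% of the 16617 tested genes were called higher, 2.17% lower and 4.04% in either direction. Scaling by library size alone turned the balance of the 310 higher and 361 lower calls over all genes to 434 and 292, and left 24 members above 0. Log2 fold changes were above 0 for 23 members and below 0 for 6, with a median of 0.14 beside 0.0036 over all tested genes. At an unadjusted p under 0.05, 10 members were higher (34.5%, against 7.81% of all tested genes) and 0 were lower. Both cKO libraries lay above both WT libraries for 14 members (48.3%, against 23.2% of all tested genes), and below both for 1, Abcg1 (3.45%, against 23.2%). The members were listed with results of these data already known, so these shares are a description of the list, and no test over it was made.

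**Figure D1:**
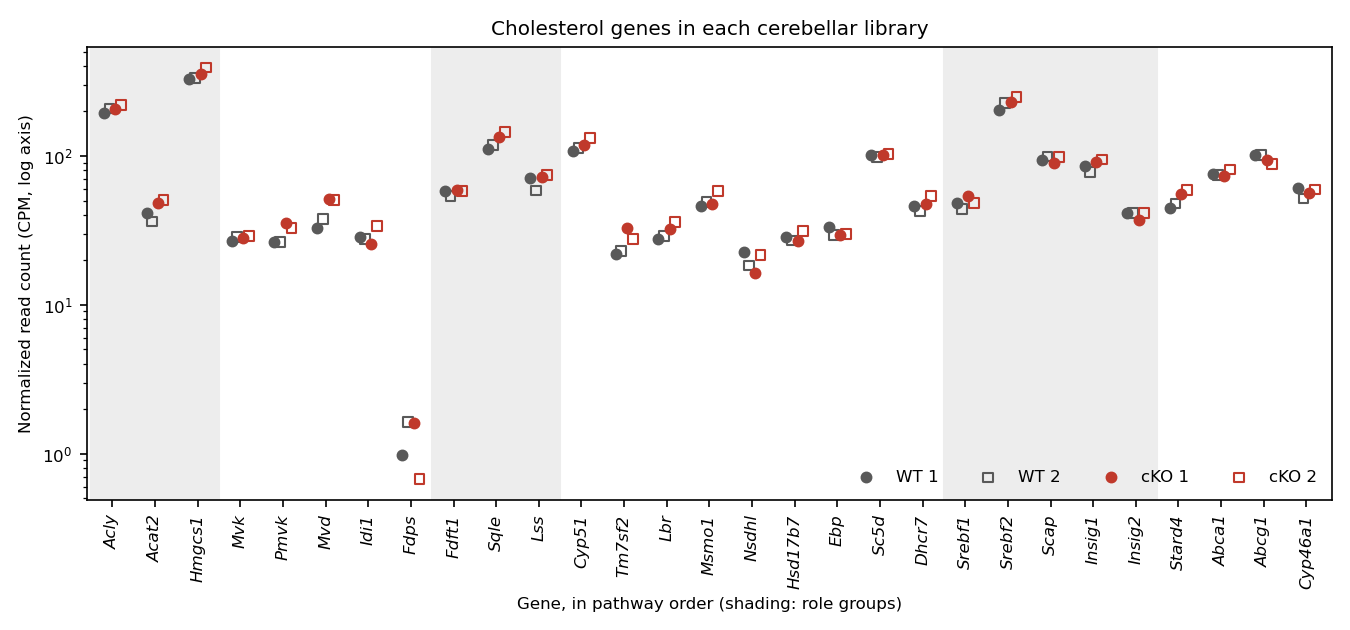
Normalized read count (CPM, log axis) of the 29 genes in each of the 4 libraries, 1 point per library (WT grey, cKO red, replicate 1 filled circles, replicate 2 open squares), with role groups shaded alternately. Hmgcs1 is highest at 326 to 391 CPM, and Fdps lies far below the rest at 0.672 to 1.62 CPM.

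The upward shift was larger in cKO 2 than in cKO 1. Relative to the mean of the WT libraries, the median member was 0.093 higher in cKO 1 and 0.20 higher in cKO 2 on the log2 scale. In cKO 2, 22 of the 29 genes exceeded both WT libraries, and in cKO 1, 15 did. Of all 16617 tested genes, 6396 did in cKO 2 and 6137 in cKO 1. The level in cKO 2 exceeded that in cKO 1 for 22 members (75.9%, against 50.1% of all tested genes). Summed over the 29 genes, the level was 2105 and 2122 CPM in WT and 2249 and 2395 CPM in cKO.

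The sterol-responsive promoters of this pathway are known to pair a sterol regulatory element, bound by SREBP, with a CCAAT box, bound by NF-Y. RefSeq promoter windows (GRCm38.p6, 250 bases before to 50 after the start) were at hand for 24 members, 32 windows in all, and were searched on both strands. Fdps, Fdft1, Sqle, Stard4 and Abcg1 were not among them. The CCAAT box was in a window of 21 of the 24 members (87.5%), against 41.1% of 27025 genes. Those 27025 are all genes with a window, expressed in this tissue or not, whereas all members had enough counts to be tested. A gene was counted if any of its windows matched. The 3 members without it were Acat2, Scap and Abca1. The sequence TCACNCCAC, a form of the sterol regulatory element, was in 1 member, Hmgcs1 (4.17%, against 1.44%), and the looser CACNCCA, which lies within it, was in 6 (25%, against 20.6%). The E-box CACGTG, which reads the same on both strands, was in 6 members (25%, against 8.09%). A match describes letters in the window and is no evidence of binding.

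Promoters are shown for Hmgcs1, the most abundant member and the one with a match to TCACNCCAC, for Mvd, the member with the smallest p, for Tm7sf2, the next largest fold change, and for Abca1, an efflux gene without a CCAAT box. Capitals mark TCACNCCAC, CCAAT and CACGTG on either strand, so that ATTGG is a CCAAT box on the opposite strand. The windows lie at chr13:119690101-119690400 on the plus strand for Hmgcs1, and on the minus strand at chr8:122443373-122443672 for Mvd, chr19:6067801-6068100 for Tm7sf2 and chr4:53159846-53160145 for Abca1.
Hmgcs1: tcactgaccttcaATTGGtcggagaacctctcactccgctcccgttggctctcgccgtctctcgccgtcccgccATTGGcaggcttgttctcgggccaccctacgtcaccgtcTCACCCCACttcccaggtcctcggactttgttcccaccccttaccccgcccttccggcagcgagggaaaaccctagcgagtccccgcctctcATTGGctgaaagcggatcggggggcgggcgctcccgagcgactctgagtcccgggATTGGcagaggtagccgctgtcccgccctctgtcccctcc
Mvd: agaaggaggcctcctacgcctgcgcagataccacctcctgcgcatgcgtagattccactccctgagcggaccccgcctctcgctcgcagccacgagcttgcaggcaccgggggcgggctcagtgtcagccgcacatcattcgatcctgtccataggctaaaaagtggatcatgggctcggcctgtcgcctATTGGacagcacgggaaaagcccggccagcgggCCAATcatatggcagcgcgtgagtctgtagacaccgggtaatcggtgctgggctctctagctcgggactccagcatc
Tm7sf2: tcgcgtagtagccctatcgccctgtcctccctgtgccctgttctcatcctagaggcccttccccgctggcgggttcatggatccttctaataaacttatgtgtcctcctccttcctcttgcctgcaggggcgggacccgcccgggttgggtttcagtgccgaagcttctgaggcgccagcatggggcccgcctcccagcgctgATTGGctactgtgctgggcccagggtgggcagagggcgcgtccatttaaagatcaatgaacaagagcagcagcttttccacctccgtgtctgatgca
Abca1: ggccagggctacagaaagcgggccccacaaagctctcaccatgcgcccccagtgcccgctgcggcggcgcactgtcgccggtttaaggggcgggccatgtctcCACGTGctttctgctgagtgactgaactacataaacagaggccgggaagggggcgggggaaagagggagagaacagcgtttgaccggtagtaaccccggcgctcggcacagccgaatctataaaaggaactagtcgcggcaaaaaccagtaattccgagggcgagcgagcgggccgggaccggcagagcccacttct
Counted from the RefSeq start used for each window, which need not be the first base of the gene in the GENCODE annotation, the TCACNCCAC match of Hmgcs1 begins at -137, and 3 of its 4 CCAAT boxes at -237, -176 and -45. Both CCAAT boxes of Mvd lie close to the start, at -60 and -27, and the single one of Tm7sf2 at -47.

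The first steps supply acetyl-CoA and join it into HMG-CoA. None of these 3 genes passed, although 2 lay higher in both cKO libraries (66.7%, against 23.2% of all tested genes). Hmgcs1, the HMG-CoA synthase, was measured at 326 and 333 CPM in the WT mice and 356 and 391 CPM in the cKO mice, without overlap (log2 fold change 0.18, SE 0.071, edgeR adjusted p = 0.181). Acat2, the cytosolic thiolase that joins 2 acetyl-CoA units, was measured at 41.0 and 36.2 CPM in the WT mice and 48.2 and 50.2 CPM in the cKO mice. These groups too were apart (log2 fold change 0.35, SE 0.11, edgeR adjusted p = 0.0744). Acat2 shares 28.9% of its transcript sequence in runs of 100 bases with Acat3, a close copy, and Tcp1, so its level is uncertain. Acat3 itself was at 29 and 32.8 CPM in WT and 30.5 and 33.6 CPM in cKO. Acly, which makes cytosolic acetyl-CoA from citrate, overlapped between groups at 195 and 208 CPM in WT and 207 and 220 CPM in cKO.

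Mevalonate is phosphorylated by MVK and PMVK, decarboxylated by MVD to isopentenyl diphosphate, isomerized by IDI1 and condensed by FDPS to farnesyl diphosphate. Mvd showed the largest difference of the 29 genes. It was measured at 32.6 and 37.5 CPM in the WT mice and 51.5 and 50.5 CPM in the cKO mice, so that both cKO libraries stood well above both WT libraries. Mvd (chromosome 8, 122433601 to 122443422 of GRCm38, minus strand) rose 1.46-fold, or 0.54 on the log2 scale (SE 0.11; edgeR, adjusted p = 0.00541; n = 2 mice per genotype). The log2 fold change of Mvd was 0.45 to 0.65 with any 1 library left out, and its call was lost without WT 1 (edgeR adjusted p = 0.0943), without cKO 1 (edgeR adjusted p = 0.319) and without cKO 2 (edgeR adjusted p = 0.493).

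Pmvk, the kinase just before MVD, was measured at 26.5 and 26.3 CPM in the WT mice and 35.4 and 32.7 CPM in the cKO mice. The groups did not overlap, but the difference did not pass (log2 fold change 0.37, SE 0.12, edgeR adjusted p = 0.103). Mvk showed overlapping levels, 26.6 and 28.4 CPM in WT and 28.1 and 29 CPM in cKO (log2 fold change 0.05, 95% interval -0.21 to 0.31). Idi1 was at 28.7 and 27.5 CPM in WT and spanned them in cKO, at 25.5 and 33.7 CPM, and its log2 fold change of 0.07 became -0.14 without cKO 2. Fdps cannot be read here, with only 6 to 16 counts per library. Of the runs of 100 bases in its coding transcripts, 54.1% also occur in other annotated genes. Reads with several alignments were counted in an entry of their own, outside the genes. Fdps also shares 26.7% of its exon length with Gm43738. Whether either lowers its counts was not tested. The interval of Fdps runs from -1.32 to 1.0 on the log2 scale. For Idi1 the share of such runs over all transcripts is 21.9%.

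The next 3 enzymes commit farnesyl diphosphate to sterols. For each of them both cKO libraries lay above both WT libraries, as they did for 23.2% of all tested genes. Sqle, the squalene monooxygenase and a rate-limiting step of the pathway, was measured at 110 and 118 CPM in the WT mice and 135 and 144 CPM in the cKO mice. Sqle (chromosome 15, 59315077 to 59331192, plus strand) rose 1.22-fold, or 0.29 on the log2 scale (SE 0.079, adjusted p = 0.0428 in edgeR, n = 2 mice per genotype). That call lies close to the threshold. It was lost with any 1 library left out (edgeR adjusted p = 0.102 to 0.493), in DESeq2 (adjusted p = 0.130), and in edgeR with upper-quartile scaling (adjusted p = 0.0652) or unfiltered genes (adjusted p = 0.150). Without single libraries its log2 fold change was 0.24 to 0.34. Lss, the lanosterol synthase, was measured at 71.4 and 58.5 CPM in the WT mice and 72.2 and 74.5 CPM in the cKO mice. The lower of its WT values made most of that gap, and the log2 fold change of 0.17 was 0.039 without WT 2 (edgeR adjusted p = 0.397 with all libraries). Fdft1, the squalene synthase, was measured at 57.7 and 53.6 CPM in the WT mice and 58.9 and 58.3 CPM in the cKO mice (log2 fold change 0.07, 95% interval -0.12 to 0.27), and shares 18.3% of its exon length with Ctsb.

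**Figure D2:**
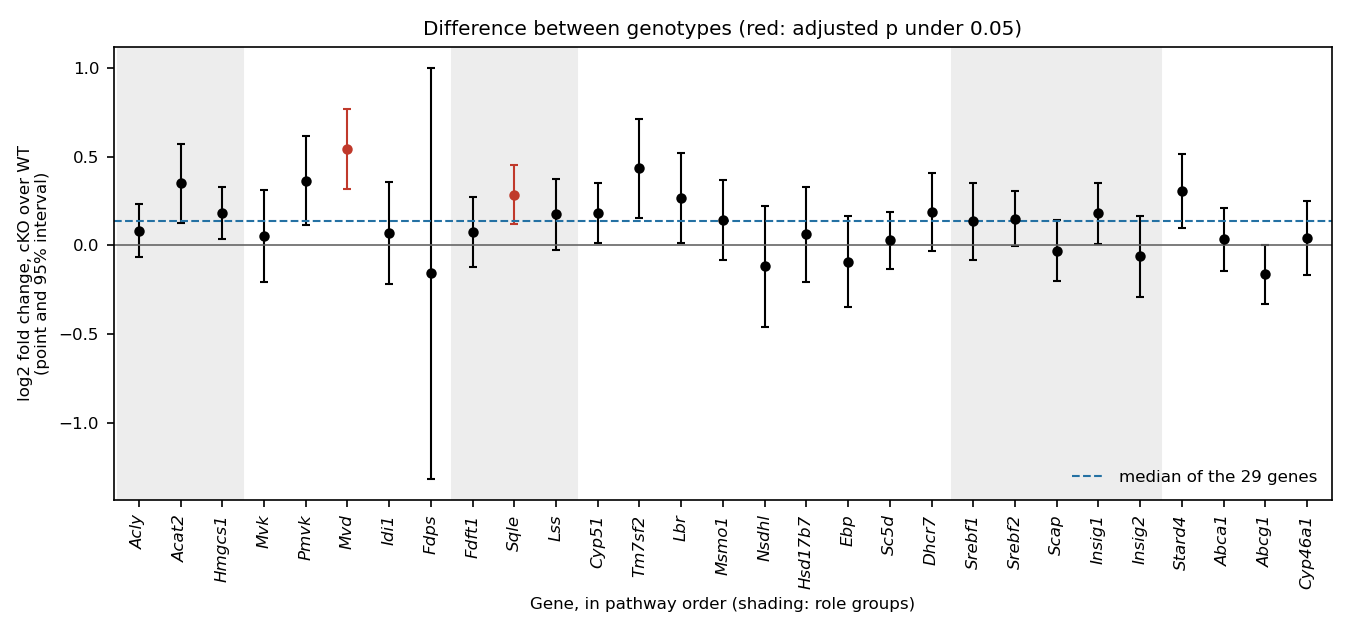
Log2 fold change (cKO over WT) of the 29 genes from the edgeR fit, with 95% intervals, in pathway order; the dashed line is the median of the 29 genes, 0.14. Mvd and Sqle, in red, passed the adjusted threshold, and Fdps has the widest interval, -1.32 to 1.0.

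From lanosterol to cholesterol the 9 genes were mixed, with 0 calls in edgeR and 3 at an unadjusted p under 0.05. Log2 fold changes ran from -0.12 to 0.44, with a median of 0.14. In 4 genes the groups did not overlap, all higher in cKO (44.4%, against 23.2% of all tested genes). Tm7sf2 and Lbr encode enzymes for the same sterol reduction, and LBR is also the lamin B receptor of the inner nuclear membrane. Tm7sf2 was measured at 21.8 and 22.9 CPM in the WT mice and 32.8 and 27.6 CPM in the cKO mice (log2 fold change 0.44, SE 0.13, edgeR adjusted p = 0.0748). Lbr was measured at 27.6 and 28.8 CPM in the WT mice and 32.1 and 36.0 CPM in the cKO mice (log2 fold change 0.27, SE 0.12, edgeR adjusted p = 0.273). Both were thus higher in each cKO library, short of the threshold. Tm7sf2 shares 12.1% of its exon length with Vps51, on the same strand, where reads are ambiguous between them.

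Cyp51, the lanosterol demethylase, was measured at 108 and 112 CPM in the WT mice and 118 and 132 CPM in the cKO mice. Dhcr7, which catalyzes a last step of the pathway, was measured at 46.2 and 42.5 CPM in the WT mice and 47.8 and 53.4 CPM in the cKO mice. Both sets of libraries were apart, with log2 fold changes of 0.18 (edgeR adjusted p = 0.261) and 0.19 (edgeR adjusted p = 0.40). The other 5 genes had overlapping groups. Msmo1 and Hsd17b7, of the removal of the methyl groups at carbon 4, reached 57.8 and 31.3 CPM in cKO 2, above both WT libraries, but lay at 47.5 and 26.6 CPM in cKO 1, within or below the WT levels of 46.1 and 49.0 CPM and of 28.3 and 27 CPM. Sc5d, the sterol desaturase, was the flattest, at 102 and 98.4 CPM in WT and 101 and 103 CPM in cKO (log2 fold change 0.03, 95% interval -0.14 to 0.19).

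Nsdhl and Ebp, a dehydrogenase and an isomerase of these steps, are the 2 members on the X chromosome, and both were highest in WT 1, the library with Y-linked RNA. Nsdhl was measured at 22.5 and 18.4 CPM in the WT mice and 16.3 and 21.5 CPM in the cKO mice. Ebp was measured at 33.4 and 29.4 CPM in the WT mice and 29.2 and 29.7 CPM in the cKO mice. Their log2 fold changes of -0.12 and -0.09 became 0.039 and 0.0043 without WT 1. The sign of Nsdhl also turned without cKO 1 (0.074), and its log2 fold change was -0.26 without WT 2 and -0.32 without cKO 2. Ebp was at -0.18 without WT 2, -0.080 without cKO 1 and -0.10 without cKO 2. Whether sex has a part in these values was not tested.

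Among the genes of sterol sensing, 0 of 5 passed in edgeR, and 1, Insig1, had an unadjusted p under 0.05. Srebf2, which encodes SREBP2, the main activator of the synthesis genes, was measured at 202 and 228 CPM in the WT mice and 229 and 248 CPM in the cKO mice. WT 2 and cKO 1 were nearly equal, and the difference of 0.15 on the log2 scale (SE 0.075; edgeR, adjusted p = 0.332) was 0.066 without WT 1. Insig1, itself an SREBP target, was measured at 86.0 and 77.9 CPM in the WT mice and 91.3 and 94.3 CPM in the cKO mice (log2 fold change 0.18, SE 0.083, edgeR adjusted p = 0.280). Its paralog Insig2, which is not driven by SREBP in the same way, was measured at 41.0 and 41.1 CPM in the WT mice and 37.3 and 41.4 CPM in the cKO mice (log2 fold change -0.06, 95% interval -0.29 to 0.17). Srebf1 was measured at 48.4 and 43.9 CPM in the WT mice and 53.4 and 48.1 CPM in the cKO mice, and Scap at 93.1 and 99.0 CPM in the WT mice and 89.8 and 98.5 CPM in the cKO mice. Both pairs of groups overlapped.

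Transport and clearance genes did not move as 1 group. Stard4, a sterol carrier between membranes and an SREBP target, was measured at 44.4 and 47.8 CPM in the WT mice and 55.2 and 58.9 CPM in the cKO mice, without overlap (log2 fold change 0.31, SE 0.099, edgeR adjusted p = 0.0951). Abcg1, which exports sterols and is induced by the oxysterol receptor LXR, was the 1 member lower in both cKO libraries. It was measured at 101 and 102 CPM in the WT mice and 93.3 and 87.8 CPM in the cKO mice (log2 fold change -0.16, SE 0.080, edgeR adjusted p = 0.316). Abca1, another LXR-induced exporter, showed no such separation, at 75.4 and 74.5 CPM in WT and 73.0 and 80.8 CPM in cKO (log2 fold change 0.04, 95% interval -0.14 to 0.21). Cyp46a1, the neuronal hydroxylase that clears brain cholesterol, was measured at 60.8 and 51.7 CPM in the WT mice and 56.5 and 59.4 CPM in the cKO mice (log2 fold change 0.04, 95% interval -0.17 to 0.25).

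Per kilobase of annotated exon, levels in WT ranged widely along the pathway. Hmgcs1 had the highest level, 71.7 CPM per kb, followed by Acly at 38.1, Srebf2 at 29.9, Insig1 at 26.5 and Cyp51 at 25 CPM per kb. Srebf2 was above Srebf1, at 8.20 CPM per kb, and Insig1 above Insig2, at 11.8 CPM per kb. These levels divide by the union of all annotated exons, which for Lss reaches 10.8 kb, so genes with long rare exons appear lower.

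Leaving out single libraries moved the size of the shift more than its direction. The median log2 fold change of the 29 genes was 0.13 without WT 1, 0.11 without WT 2, 0.20 without cKO 1 and 0.095 without cKO 2, with 25, 24, 26 and 20 members above 0. The count of members called higher was 0, 1, 0 and 0 in these fits, and 7, 6, 8 and 4 members were higher at an unadjusted p under 0.05. When either cKO library was left out, 0 genes of the whole table passed in edgeR, where 2315 and 1718 had an unadjusted p under 0.05, so lost calls there say little of a member. The fit without WT 1 compares libraries of the same sex-linked pattern, and in it Mvd had a log2 fold change of 0.45 and Sqle of 0.24.

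**Figure D3:**
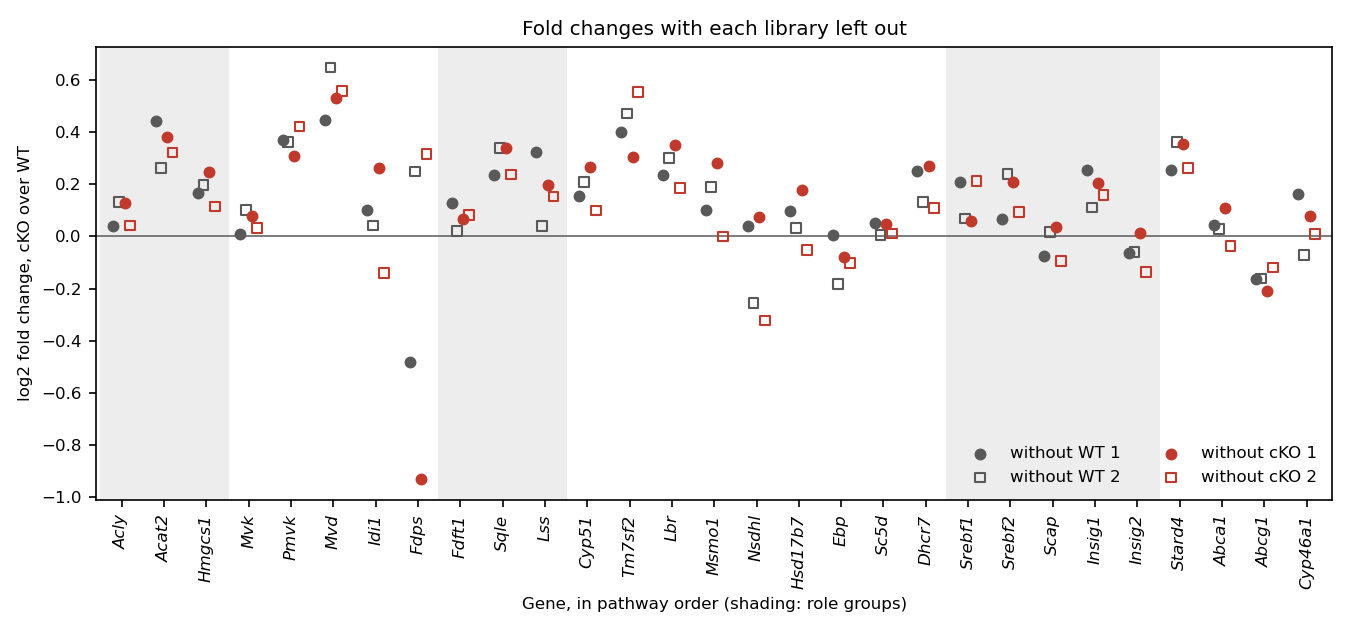
Log2 fold change (cKO over WT) of the 29 genes in 4 edgeR fits, each without 1 library (grey, a WT library left out; red, a cKO library left out), in pathway order. Mvd, Sqle, Pmvk, Tm7sf2, Acat2 and Stard4 stay above 0.2 in all 4 fits, whereas Fdps runs from -0.93 to 0.32.

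The medians of neighboring pathways lay near or below 0. Of 11 genes of the isoprenoid branch, which draws on farnesyl diphosphate for ubiquinone, dolichol and protein prenylation, 0 were called in edgeR (1 at an unadjusted p under 0.05) and the median log2 fold change was -0.071. Of 14 further sterol-sensing genes, such as the proteases and ubiquitin ligases that act on SREBP and its partners, 0 were called (1 at an unadjusted p under 0.05), with a median of 0.0088. Of 18 fatty acid synthesis genes, which include targets of SREBP1, 0 were called, with a median of -0.018. At an unadjusted p under 0.05, 4 of these 18 were higher (22.2%, against 7.81% of all tested genes) and 2 were lower. These lists were not compared with the cholesterol genes by a test.

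Markers of the cell types of the cerebellum also differed between the genotypes. In bulk tissue, a change in the number of cells of a type cannot be told apart from a change in RNA per cell. Of 7 markers of newly postmitotic neurons 7 rose, and their summed level was 717 and 818 CPM in WT against 1105 and 1485 CPM in cKO. The 6 markers of dividing progenitors summed to 100 and 128 CPM in WT and to 169.7 and 285 CPM in cKO, and 5 of the 5 tested rose. Of 7 mature granule neuron markers 6 fell, with sums of 4288 and 4409 CPM in WT and 3477 and 3020 CPM in cKO. The summed level of cKO 2 lay farther from the WT mean than that of cKO 1 in these 3 lists. The same held for markers of granule neuron identity, myelinating oligodendrocytes, oligodendrocyte precursors and newly formed oligodendrocytes, Bergmann glia and astrocytes, and Purkinje cells. For markers of microglia, endothelial cells and choroid plexus, cKO 1 lay farther.

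Glial markers were mixed. The 12 markers of myelinating oligodendrocytes summed to 6754 and 6469 CPM in WT and to 5865 and 5694 CPM in cKO, where 2 fell and 0 rose. Bergmann glia and astrocyte markers summed to 4589 and 4526 CPM in WT and to 4076 and 3937 CPM in cKO, and 4 of 10 fell. The other 6 did not pass. Their log2 fold changes were 0.28 (Aldh1l1), 0.18 (Hopx), 0.090 (Gfap), 0.035 (Aqp4), -0.18 (Gja1) and -0.22 (Hepacam). Markers of oligodendrocyte precursors and newly formed oligodendrocytes were split, with 2 of 8 higher (Gpr17 and Bcas1, 0.34 and 0.32 on the log2 scale) and 1 lower (Olig1, -0.30), and sums of 582 and 557 CPM in WT and 567 and 646 CPM in cKO. Purkinje cell markers summed to 5320 and 5242 CPM in WT and 4969 and 4649 CPM in cKO (1 of 6 higher, 1 lower). Microglia (109 to 119 CPM over the 4 libraries) and endothelial cells (178 to 196 CPM) had 0 of 6 and 0 of 5 markers called in edgeR, with 1 and 0 at an unadjusted p under 0.05. The part of any of these shifts in the cholesterol genes was not tested. Of 5 tested choroid plexus markers 2 were called higher, and Ttr was above both WT libraries in cKO 2 as well as in cKO 1. Their part in the cholesterol genes was not tested either.

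**Figure D4:**
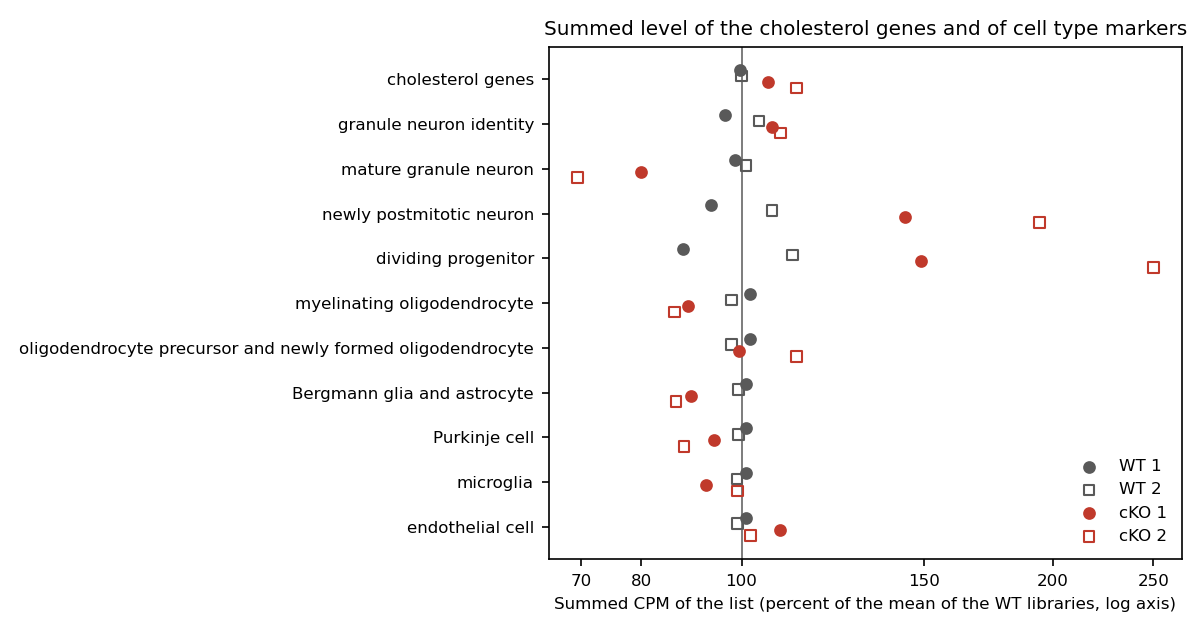
Summed CPM of the 29 cholesterol genes and of 10 cell type marker lists in each library, as percent of the mean of the WT libraries (log axis; WT grey, cKO red, replicate 1 filled, replicate 2 open). The cholesterol genes reach 106% in cKO 1 and 113% in cKO 2, newly postmitotic neuron markers 144% and 194%, and myelinating oligodendrocyte markers 88.7% and 86.1%; choroid plexus markers are left off the scale.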

How the data were processed

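Poly(A) RNA of each cerebellum was sequenced in paired ends. Per the study's methods and processing notes, the authors used Trimmomatic 0.38 for trimming, STAR 2.7.2b for alignment to GRCm38, and HTSeq to make the deposited whole-number counts per gene over GENCODE exons. Whether strand was used is not given in the sources used here. Entries in no gene (59.5% to 61.0% of each library) were left out. Most of them matched no annotated exon (48.8% to 49.6% of each library), and the reason was not tested. From these counts, genes were filtered with filterByExpr, scaled by TMM and compared between genotypes with edgeR 4.0.16 in R 4.3.3 (quasi-likelihood test, two-sided, Benjamini-Hochberg over 16617 genes, threshold 0.05). CPM are TMM-scaled, and 95% intervals come from the same fit. Counts of same-group libraries varied beyond Poisson noise (chi-square over degrees of freedom, 3.51 in WT and 3.82 in cKO). Alternatives were other scalings and filters, DESeq2 1.42.0, limma-voom (limma 3.58.1), a replicate block, removal of sex-linked genes, and removal of 1 library at a time, which takes the spread of the lone remaining library from the other genotype. Gene positions and exon lengths came from GENCODE M21. Promoter windows on chromosome 18 were not searched. Named genes were all members and Kdm6b. For some marker lists, up to 2 called genes with the smallest p were also named. The called genes of the other lists are given only as counts. Outside that rule, all granule neuron identity markers, Bcas1, Xist and genes sharing sequence with members were named. So were the uncalled Bergmann glia and astrocyte markers. Members and lists were chosen with earlier results of these data known. The test was tried on simulated counts, drawn with 1 dispersion for all genes. It recovered 4% of 50 genes with a true log2 change of 0.3 and 44.9% of 49 genes with 0.5. At true changes of 1 and 2 it recovered 86% and 98%. With 2 libraries a group, p-values rest on the spread between these mice, which edgeR moderates with the spread of all tested genes. A further list, of sterol uptake, storage and efflux genes, is not reported here.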

Additional observations from a re-analysis of the deposited data

How the results depend on the processing

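The lean of the members was upward in all 13 alternatives, with a median log2 fold change of 0.12 to 0.17 outside the fits that leave out a library and 0.095 to 0.20 within them. The 310 higher and 361 lower calls over all genes became 71 and 106 with no filter on low counts, 137 and 183 in DESeq2 and 549 and 581 with a replicate block, and ran from 0 to 263 and from 0 to 244 with 1 library left out. Library size alone gave 434 and 292, upper-quartile scaling 239 and 407. Members called higher went from 2 to 1 with upper-quartile scaling, with no filter and in DESeq2, to 4 with a replicate block (Acat2 and Tm7sf2 joined, with edgeR adjusted p = 0.0382 and 0.0366), and ran from 0 to 1 with 1 library left out. Replicate numbers are not known to pair the mice (correlation of deviations between same-numbered libraries 0.0429). Acat2 also passed with library size alone (edgeR adjusted p = 0.0497). Signs turned for 10 members, none of which passed the test with all libraries. Scap went to 5.66e-04 with library size alone. With 1 library left out the log2 fold changes ran from -0.14 to 0.26 for Idi1, -0.93 to 0.32 for Fdps, -1.26e-04 to 0.28 for Msmo1, -0.32 to 0.074 for Nsdhl, -0.052 to 0.18 for Hsd17b7, -0.18 to 0.0043 for Ebp, -0.095 to 0.037 for Scap, -0.14 to 0.014 for Insig2, -0.037 to 0.11 for Abca1 and -0.070 to 0.16 for Cyp46a1. The cause of these changes was not tested. Members other than Fdps had 162 to 3535 counts per library, and both this depth and the 2 mice a group limit the precision.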
